A study of Rattus norvegicus with 12 samples.

Results

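Fos, Fosb, Fosl1, Fosl2, Jun, Junb, Jund, Atf3, Maff and Mafk encode leucine zipper transcription factors of the AP-1 and small Maf families. These 10 genes were taken by name, with no threshold on their measured values, but with earlier results of these data known. Each was read from the array row that the platform annotation pairs with that gene alone. Of the 10 genes, 9 had such a row among 18166 named genes, and Fosl2 had none and was not analysed here. Jun had 2 rows, and the one with the higher mean was used. In RefSeq, build GRCr8, Fos lies at chr6:110852188-110855054, Jun at chr5:115009900-115012993, Atf3 at chr13:105274103-105331653 and Mafk at chr12:19948473-19970351.

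AP-1 is a family of dimers. Fos proteins pair with Jun proteins, and Jun proteins also pair with each other and with Atf3. The dimers bind the AP-1 site, TGA(C/G)TCA, and Jun and Atf proteins also bind the cyclic AMP response element (CRE), TGACGTCA. Fos, Fosb, Jun, Junb and Atf3 are immediate-early genes, which are transcribed within minutes of a stimulus without the need for new protein. Jund is more often present at rest. The small Maf proteins Maff and Mafk have no activation domain of their own and work as partners of factors such as Nfe2l2 and Bach1. In astrocytes, the star-shaped glia of the brain, AP-1 genes are known for their rise after injury, growth factors and inflammatory signals.

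The 12 arrays held RNA of primary astrocytes grown from the cerebral cortex of Sprague-Dawley rats 1 day old, in 4 groups with 3 arrays each. The siSHP_IFNg_GW cells carried siRNA against SHP, read here as the nuclear receptor gene Nr0b2, and received interferon-γ together with a compound that the labels call GW. The siCon_IFNg_GW cells carried control siRNA and received both agents, the siCon_IFNg cells carried control siRNA and received interferon-γ alone, and the siCon cells carried control siRNA and received neither. Treatment lasted 3 h, and every group had been transfected with an siRNA. No group analysed here received GW without interferon-γ, or SHP siRNA without GW. The sample titles carry a number from 1 to 3, called the array number below. No label says whether the numbers stand for separate cultures, and the p-values therefore reflect how far arrays of a group differ, a spread that could be technical. The series text says that 4 arrays of an earlier series were analysed again, and it does not tie them to an array number.

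Values are log2 expression, on which 1 unit is a 2-fold difference. Levels of different genes on an array were not compared with each other. Column medians over the named genes ran from 6.49 to 6.58. All 9 genes lay on all 12 arrays above 5.34, the 95th percentile of 1344 olfactory and vomeronasal receptor genes, which stand here for background. All 8 measured astrocyte markers, Gfap and Aqp4 among them, were over that level on every array, with a mean level of 9.96 to 10.43. So were all 12 microglia and myeloid markers, although the labels say that the medium, free of serum for 2 days, was meant to deplete microglia and meningeal cells. Of the neuron, oligodendrocyte lineage, and meningeal and vascular markers, 4 of 8, 5 of 7 and 4 of 7 were over it on every array. Nr0b2 lay between 4.59 and 5.12, under background on all 12 arrays, so its knockdown could not be checked at this signal. The arrays numbered 1 stood apart from the others in all 4 groups, and results for the 9 genes are therefore given with and without them. For example Col1a1, a collagen gene of meningeal cells, was at 8.88, 8.28, 8.11 and 8.06 on the arrays numbered 1 of siSHP_IFNg_GW, siCon_IFNg_GW, siCon_IFNg and siCon, and at 10.47 to 10.74 on those numbered 2 and 3.

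Promoter sequences are shown as background, because AP-1 and Atf dimers are known to act on the promoters of AP-1 genes themselves. Fos, Jun and Atf3 had no window, and any part of these motifs in the array values was not tested. The windows are the 250 bases before the start that the RefSeq promoter table, build GRCr8, uses for the gene, and 7 of the 10 genes had one (Fosb, Fosl1, Fosl2, Junb, Jund, Maff and Mafk). Capitals mark the CRE or its first 5 letters, TGACG, on either strand, and in Junb also the ETS motif GGAAGT, which reads ACTTCC on the strand shown.
Maff: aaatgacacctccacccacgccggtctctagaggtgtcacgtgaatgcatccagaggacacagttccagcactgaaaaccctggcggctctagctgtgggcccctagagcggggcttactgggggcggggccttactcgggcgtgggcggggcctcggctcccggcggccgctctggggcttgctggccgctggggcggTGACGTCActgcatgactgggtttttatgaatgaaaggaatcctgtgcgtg
Jund: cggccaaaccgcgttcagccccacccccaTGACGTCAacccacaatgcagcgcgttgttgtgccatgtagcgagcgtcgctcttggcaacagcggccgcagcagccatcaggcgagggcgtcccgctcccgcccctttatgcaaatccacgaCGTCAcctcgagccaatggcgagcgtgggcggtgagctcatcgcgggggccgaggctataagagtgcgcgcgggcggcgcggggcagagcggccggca
Mafk: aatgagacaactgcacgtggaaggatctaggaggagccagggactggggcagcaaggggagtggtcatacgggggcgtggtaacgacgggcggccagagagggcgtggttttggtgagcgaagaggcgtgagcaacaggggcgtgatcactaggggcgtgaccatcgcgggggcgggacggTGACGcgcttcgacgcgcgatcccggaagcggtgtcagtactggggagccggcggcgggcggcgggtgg
Junb: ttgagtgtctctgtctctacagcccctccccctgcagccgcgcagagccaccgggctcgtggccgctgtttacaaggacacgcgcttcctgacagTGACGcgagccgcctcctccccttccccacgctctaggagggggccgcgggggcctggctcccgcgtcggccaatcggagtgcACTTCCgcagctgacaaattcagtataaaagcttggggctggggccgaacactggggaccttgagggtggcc

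The Maff window lies at chr7:112792537-112792786 on the plus strand, and its CRE runs from base -51 to base -44 before the start. The Jund window lies at chr16:18769772-18770021 on the minus strand, and its CRE runs from -221 to -214. The Mafk window, at chr12:19959193-19959442 on the minus strand, lies inside the annotated span of the gene, as does the Fosb window, which is not shown. The Junb window lies at chr19:40080876-40081125 on the plus strand. The full CRE was present in 2 of the 7 windows, Maff and Jund, against 1.59% of 33469 rat windows of the same length. Its first 5 letters were present in 5 of the 7 (Fosl1, Junb, Jund, Maff and Mafk), against 18.2%, and this count includes the full CREs. The AP-1 site was searched with any base in the middle, TGANTCA, which is wider than the site itself. That pattern was in 0 of the 7 windows and in 6.34% of all. The CArG box, the known site of serum response factor, was in 0 of the 7 and in 1.5% of all. GGAAGT was in the Junb window alone of the 7, from base -72 to -67, and in 19.2% of all. Each motif was searched on both strands. A match describes the letters of a window and is not a measured binding site.

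Fos, the founding member of the family, was at 11.70, 11.53 and 11.83 in siSHP_IFNg_GW and at 12.37, 11.80 and 11.20 in siCon_IFNg_GW, in the order of array numbers 1 to 3. Without GW it was at 9.33, 7.68 and 7.999 in siCon_IFNg and at 9.24, 7.74 and 7.77 in siCon. All 6 arrays with GW were above all 6 without it, and the groups overlapped with each other both with GW and without it. The array numbered 1 was the highest in every group but siSHP_IFNg_GW.

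Fosb, whose protein pairs with Jun in the same way, was at 9.27, 7.54 and 7.46 in siSHP_IFNg_GW and at 10.45, 7.84 and 7.22 in siCon_IFNg_GW. The values were 6.59, 6.14 and 6.19 in siCon_IFNg and 6.19, 6.30 and 6.26 in siCon. Again every array with GW was above every array without it, but number 1 stood far above numbers 2 and 3 in both groups with GW. Fosl1, a Fos protein known for wound and invasion responses, was at 9.92, 9.26 and 9.30 in siSHP_IFNg_GW and at 10.57, 9.37 and 8.96 in siCon_IFNg_GW. It was at 9.51, 6.99 and 6.99 in siCon_IFNg and at 7.78, 6.65 and 6.89 in siCon. The array siCon_IFNg number 1 lay among those with GW, and the other 5 arrays without GW lay below them.

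Jun, the main partner of Fos, was at 11.26, 11.49 and 11.56 in siSHP_IFNg_GW and at 11.78, 11.43 and 10.97 in siCon_IFNg_GW. It was at 9.77, 10.02 and 10.05 in siCon_IFNg and at 9.19, 8.88 and 8.92 in siCon. These are 3 separate steps, with no overlap between the groups with GW, siCon_IFNg and siCon.

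Junb, a Jun protein that can replace Jun in dimers and is known to restrain it, was at 10.39, 9.25 and 9.37 in siSHP_IFNg_GW and at 10.62, 9.33 and 9.16 in siCon_IFNg_GW. Its values were 9.76, 6.78 and 6.87 in siCon_IFNg and 8.01, 6.27 and 6.67 in siCon. As for Fosl1, siCon_IFNg number 1 lay among the arrays with GW. Jund was at 9.42, 8.71 and 8.65 in siSHP_IFNg_GW and at 9.77, 8.72 and 8.68 in siCon_IFNg_GW. It was at 9.01, 7.87 and 8.01 in siCon_IFNg and at 8.90, 8.13 and 8.04 in siCon. Number 1 was the highest array of Jund in all 4 groups, and the groups overlapped through it.

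Atf3, a stress-induced factor that often represses its targets, was at 10.36, 10.37 and 10.39 in siSHP_IFNg_GW and at 11.05, 10.48 and 10.11 in siCon_IFNg_GW. It was at 8.98, 9.07 and 9.12 in siCon_IFNg and at 8.07, 7.97 and 8.06 in siCon. Its levels formed the same 3 steps as those of Jun, with a narrow spread in siCon_IFNg (SD 0.07) and siCon (SD 0.05).

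Maff was at 9.20, 7.94 and 8.30 in siSHP_IFNg_GW and at 9.02, 8.02 and 7.52 in siCon_IFNg_GW. It was at 8.83, 6.71 and 6.52 in siCon_IFNg and at 6.40, 6.61 and 6.07 in siCon. Of the siCon_IFNg arrays, number 3 lay inside the siCon range, number 2 just above it, and number 1 among the arrays with GW. Mafk was at 8.39, 8.43 and 8.46 in siSHP_IFNg_GW and at 8.41, 8.52 and 8.38 in siCon_IFNg_GW. It was at 7.83, 7.57 and 7.69 in siCon_IFNg and at 7.30, 7.29 and 7.33 in siCon. The 3 steps of Jun and Atf3 were thus also those of Mafk, with no overlap between them.

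**Figure D1:**
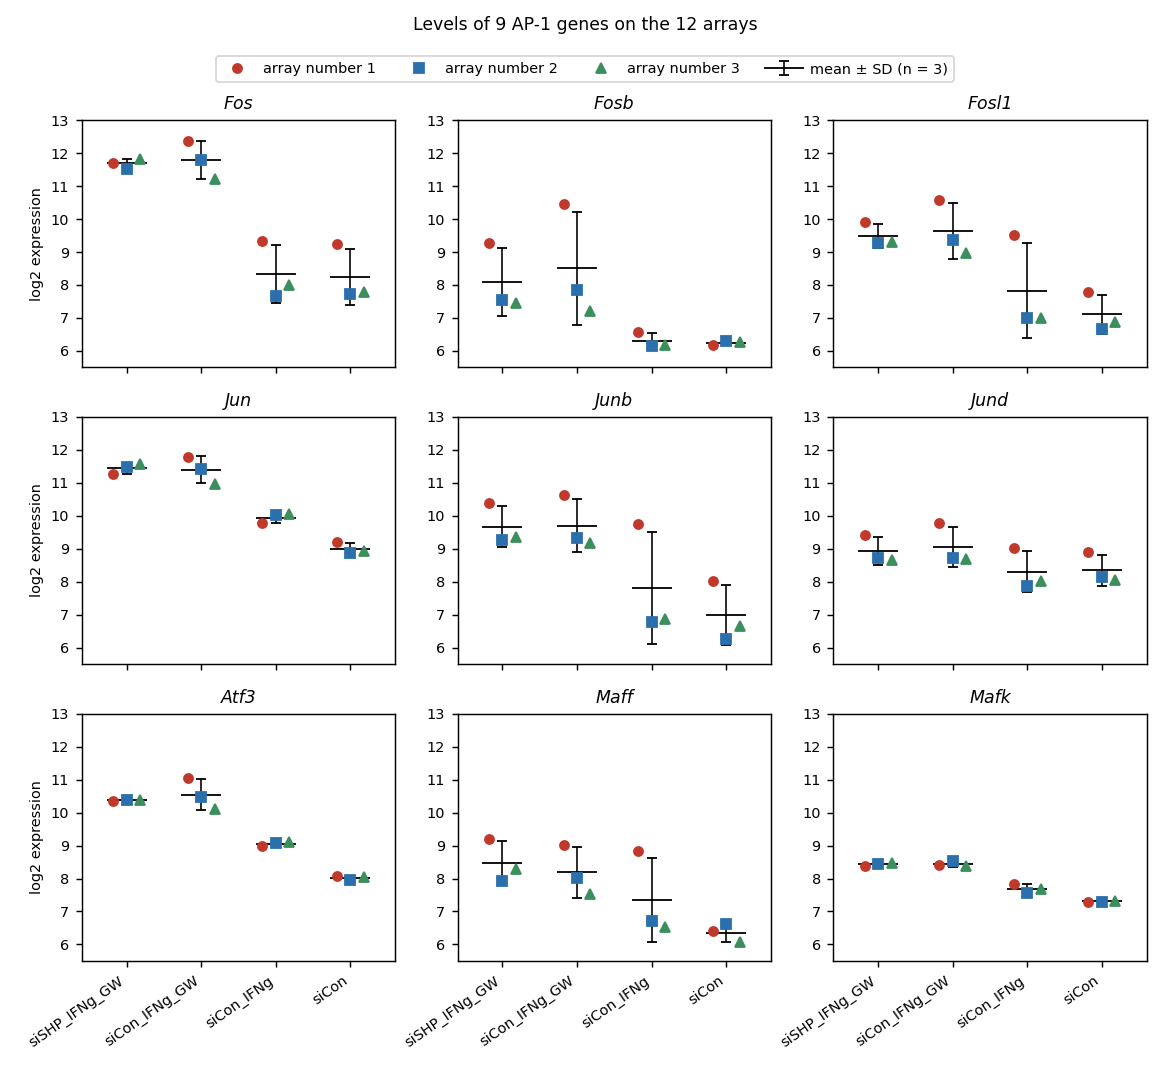
Log2 expression (y axis) of the 9 genes on the 12 arrays, by group; points are arrays, their shape and colour the array number, and bars the mean ± SD (n = 3). Fos with GW lies at 11.20 to 12.37 and without it at 7.68 to 9.33, while Jun, Atf3 and Mafk form 3 steps that do not overlap.

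With siCon_IFNg_GW set against siCon_IFNg, the groups differ by their sample titles in GW alone, both having received interferon-γ. Fos, Jun, Atf3 and Mafk rose, 4 of the 9 genes, and 0 fell. Fos averaged 11.79 ± 0.58 in siCon_IFNg_GW and 8.34 ± 0.88 in siCon_IFNg (SD, n = 3 each), an 11.0-fold difference and the 4th largest rise of 18166 genes. Its log2 change was 3.46 ± 0.48 (SE; limma adjusted p = 0.0125 over all genes). Jun rose by 1.45 ± 0.19, which is 2.73-fold (limma adjusted p = 0.0086), and Atf3 by 1.49 ± 0.18, which is 2.81-fold (limma adjusted p = 0.0077). Mafk had the smallest change of the 4, 0.74 ± 0.088 or 1.67-fold, with the same adjusted p as Atf3. Of all genes 0.633% were called higher by this test, at a limma adjusted p under 0.05, and 0.886% were called in either direction.

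The other 5 genes had positive changes that did not pass. Fosb had 2.20 ± 0.71 (SE; limma adjusted p = 0.23), Fosl1 1.80 ± 0.64 (0.28), Junb 1.90 ± 0.77 (0.36), Jund 0.76 ± 0.39 (0.52) and Maff 0.83 ± 0.58 (0.69). The median change of the 9 genes was 1.49, against 0.003 over all genes. In all 9 genes the difference was positive within each of the 3 array numbers, a trait that was not counted over all genes. It ran from 3.04 to 4.12 in Fos, from 0.91 to 2.01 in Jun and from 0.99 to 2.08 in Atf3. In Mafk it ran from 0.58 to 0.96 and in Jund from 0.67 to 0.85. The other 4 were less even: 1.04 to 3.86 in Fosb, 1.07 to 2.38 in Fosl1, 0.86 to 2.55 in Junb and 0.19 to 1.31 in Maff. In 5 genes (Fos, Fosb, Jun, Atf3 and Mafk) every siCon_IFNg_GW array was above every siCon_IFNg array, as in 8.05% of all genes.

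With the array number as a replicate block, 8 of the 9 genes rose, against 3.64% of all genes. Fosb then had an adjusted p of 0.032, Fosl1 0.011, Junb 0.0087 and Jund 0.0028 by limma, and Maff had 0.20. Without the arrays numbered 1 all 9 genes rose, against 6.47% of all genes, with changes from 0.76 in Jund to 3.66 in Fos. Maff had 1.15 ± 0.22 there (SE; limma adjusted p = 0.015). Without the arrays numbered 2, or without those numbered 3, 0 of the 9 genes were called. The count was also 0 when the other 2 groups were left out of the fit. Over all genes the count fell from 161 to as few as 0 when an array number was left out. It was 4 with the other 2 groups left out. Fos lost its call without siCon_IFNg_GW number 2, or without siCon_IFNg number 2 or 3 (limma adjusted p up to 0.071), and Jun, Atf3 and Mafk kept theirs without any 1 of the 12 arrays (up to 0.048). Without siCon_IFNg number 1, Fosl1 (limma adjusted p = 0.017) and Junb (0.031) were called as well.

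**Figure D2:**
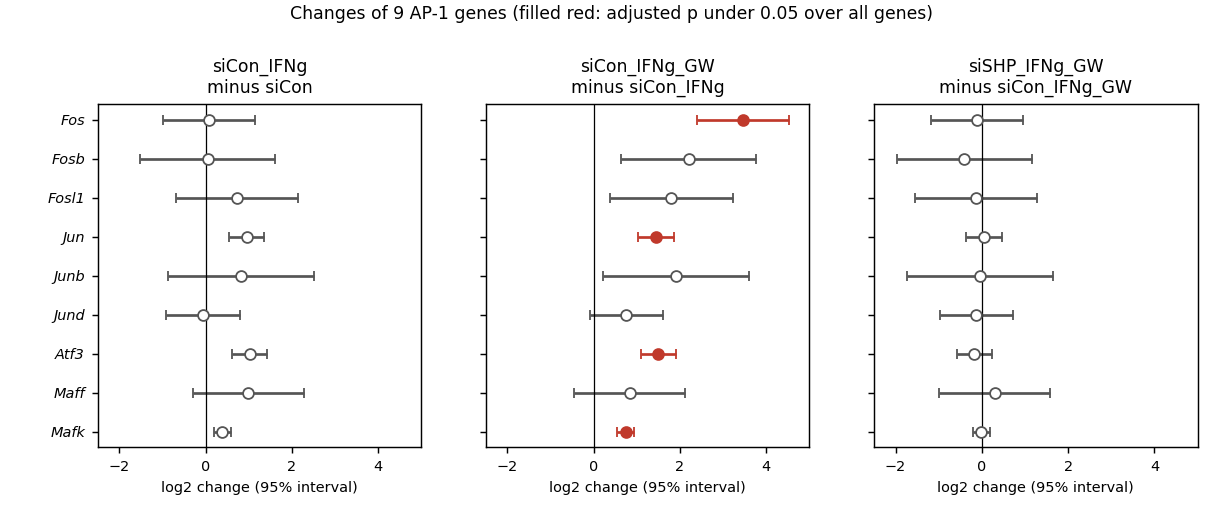
Log2 change (x axis) of each gene with its 95% interval in 3 comparisons, each n = 3 against 3 arrays; filled red points passed the limma test over all genes. In the middle panel Fos (3.46), Jun (1.45), Atf3 (1.49) and Mafk (0.74) passed, and in the other panels 0 genes did.

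The comparison of siSHP_IFNg_GW with siCon_IFNg_GW asks what SHP siRNA changed in the presence of interferon-γ and GW. With no group that had SHP siRNA without GW, the response to GW under SHP siRNA could not be measured. None of the 9 genes was called by limma, with or without the block or without the arrays numbered 1, and of all genes 0% were called. At an unadjusted p under 0.05 the count of the 9 genes was 0 in the fit of all arrays, against 2.29% of all genes. Without the arrays numbered 1 it was 1 (Jun, 0.33, limma adjusted p = 0.53), against 9.22%, while 1.47% of all genes were called there. The 95% interval of the difference was narrowest for Mafk, -0.01 with bounds of -0.21 and 0.18. For Jun the difference was 0.04 (-0.37 to 0.46) and for Atf3 -0.17 (-0.58 to 0.23). Changes as large as those of these 3 genes with GW lie outside these intervals. The intervals of the others were wider: Fos had -0.11 (-1.17 to 0.96), Fosb -0.41 (-1.98 to 1.15), Fosl1 -0.14 (-1.56 to 1.28), Junb -0.03 (-1.73 to 1.66), Jund -0.13 (-0.98 to 0.73) and Maff 0.30 (-0.99 to 1.58). The changes of Fos (3.46), Fosb (2.20), Fosl1 (1.80) and Junb (1.90) with GW were still larger than their intervals allow in either direction. For Maff (0.83 with GW), and for a fall of Jund (0.76 with GW), a change of that size lies inside the interval. Within array numbers the differences of all genes but Jund had mixed signs. Jun, for example, had -0.52, 0.06 and 0.60 in numbers 1 to 3, and Atf3 had -0.69, -0.11 and 0.28. Since Nr0b2 was under background, these values do not show how much SHP was lowered.

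The comparison of siCon_IFNg with siCon asks what interferon-γ changed on its own. Of the 9 genes 0 were called by limma, against 0.121% of all genes in either direction, and 3 genes (Jun, Atf3 and Mafk) had an unadjusted p under 0.05, against 5.5% of all genes. Atf3 was 2.04-fold higher in siCon_IFNg, at 9.06 ± 0.07 in siCon_IFNg and 8.03 ± 0.05 in siCon (SD, n = 3 each). Its change was 1.03 ± 0.18 (SE; limma adjusted p = 0.089). Jun had 0.95 ± 0.19 (0.13) and Mafk 0.39 ± 0.088 (0.22). These are the 3 genes whose siCon_IFNg arrays all lay above all siCon arrays, as in 3.59% of all genes.

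With the block Jun (limma adjusted p = 0.049) and Atf3 (0.024) rose, against 0.595% of all genes, and without the arrays numbered 1 the same genes rose (0.0028 and 0.0017), against 3.05%. Jun and Atf3 were also called without siCon_IFNg_GW number 1, and Atf3 without siCon_IFNg_GW number 3 or when the groups with GW were left out of the fit. Atf3 differed by 0.91, 1.11 and 1.06 in array numbers 1 to 3, and Jun by 0.57, 1.14 and 1.13. Fos, by contrast, had 0.09, -0.06 and 0.22, with a change of 0.09 (95% interval -0.98 to 1.15). Fosb had 0.05 (-1.51 to 1.62) and Jund -0.06 (-0.91 to 0.80). Maff, Fosl1 and Junb had changes of 0.99, 0.73 and 0.82, with an adjusted p of 0.9999 each, and most of the change came from number 1. Maff differed by 2.43 in number 1, against 0.10 and 0.45 in numbers 2 and 3.

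**Figure D3:**
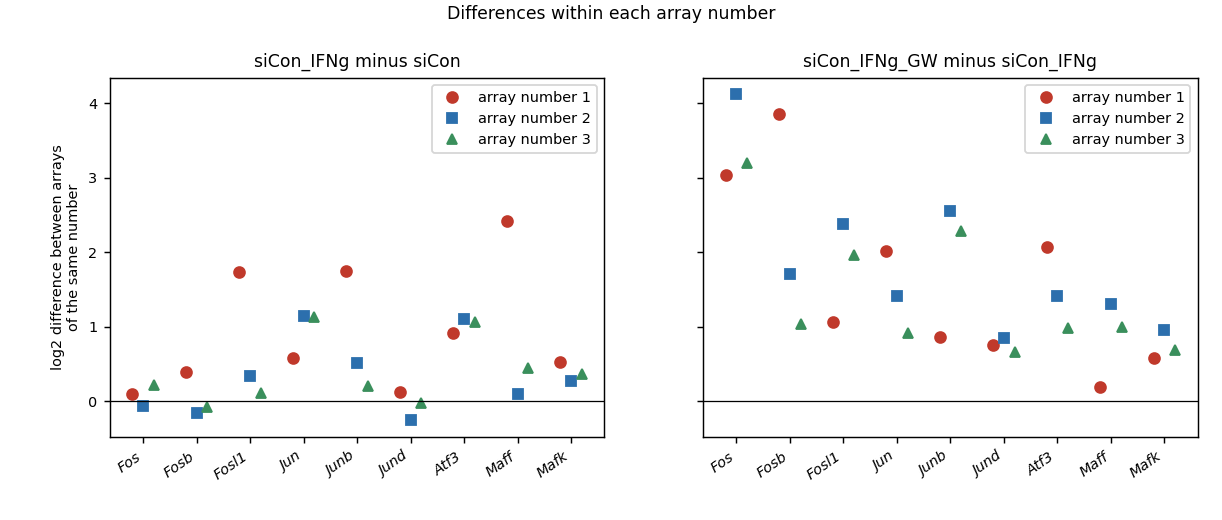
Difference in log2 expression between arrays of the same array number (y axis) for each gene, siCon_IFNg minus siCon at left and siCon_IFNg_GW minus siCon_IFNg at right. At right all differences are above 0; at left those of Maff, Fosl1 and Junb are large in number 1 (2.43, 1.73 and 1.75) and at most 0.51 in numbers 2 and 3.

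In siCon_IFNg_GW against siCon, which sets both agents together against neither, the same 4 genes rose, against 0.584% of all genes. Fos rose by 3.54 ± 0.48 (SE; limma adjusted p = 0.010), Atf3 by 2.52 ± 0.18 (2.2e-04), Jun by 2.40 ± 0.19 (2.6e-04) and Mafk by 1.13 ± 0.088 (2.6e-04). With the block all 9 genes rose, against 2.94%, and likewise without the arrays numbered 1, against 3.31%. In 8 genes, all but Jund, every siCon_IFNg_GW array was above every siCon array, as in 8.1% of all genes. Fos lost its call without siCon_IFNg_GW number 2, or without siCon number 2 or 3 (limma adjusted p up to 0.070), and Fosl1 and Junb were called as well without siCon_IFNg number 1. Without the arrays numbered 2 the count was 0, and without those numbered 3 it was 2 (Jun and Atf3). Over all genes the count fell from 157 to as few as 0 when an array number was left out.

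In siSHP_IFNg_GW against siCon_IFNg, a comparison that shares the siCon_IFNg arrays with the one on GW, Fos, Jun, Atf3 and Mafk rose by 3.35, 1.49, 1.32 and 0.73 (limma adjusted p = 0.032, 0.015, 0.028 and 0.012). Of all genes 0.242% were called higher. With the block 7 rose, all but Fosb and Maff, against 1.95%, and without the arrays numbered 1 all 9 rose, against 4%. In 5 genes (Fos, Fosb, Jun, Atf3 and Mafk) the groups did not overlap, as in 6.33% of all genes. The calls changed when single arrays were left out. Without siSHP_IFNg_GW number 2 or 3, or siCon_IFNg number 2 or 3, 0 genes were called. Without siSHP_IFNg_GW number 1, siCon_IFNg_GW number 2, or siCon number 2 or 3, only Jun and Mafk were. Without siCon_IFNg number 1 Fosl1 was called as well, and without all arrays numbered 2, or all numbered 3, the count was 0. Over all genes the count fell from 55 to as few as 0 without 1 array, and likewise without 1 array number. The log2 changes moved less over the 12 single arrays left out, from 1.40 to 1.58 in Jun and from 0.67 to 0.80 in Mafk.

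Over the 4 groups, the arrays numbered 1 were higher than those numbered 2 and 3 in 6 of the 9 genes, against 21.3% of all genes. The difference was 1.73 ± 0.23 in Junb (SE; limma adjusted p = 1.0e-04), 1.39 in Fosl1, 1.26 in Fosb, 1.15 in Maff, 0.97 in Fos and 0.92 in Jund. Jun (0.08, limma adjusted p = 0.67), Atf3 (0.17, 0.33) and Mafk (0.02, 0.83) were not called. Number 1 was set apart because of its values on these same arrays, so these p-values are a description. Of the spread of each gene over the 12 arrays, measured as sums of squares, the treatment group held 98.3% in Mafk, 96.4% in Atf3, 96.3% in Jun and 90.5% in Fos. It held 67.9% in Fosl1, 64.0% in Junb, 60.7% in Fosb and 59.9% in Maff. Jund alone of the 9 had more of its spread between array numbers (61.3%) than between groups (36.6%). The treatment changes were also set against each other between number 1 and numbers 2 and 3. With 1 array per group in number 1, that contrast takes its spread from numbers 2 and 3 alone and assumes that the lone arrays vary alike, and number 1 was chosen because its arrays stood apart, so its calls are a description. The change in siCon_IFNg against siCon was called larger in number 1 in 3 genes (Fosl1, Junb and Maff), against 2.43% of all genes called in either direction. In siCon_IFNg_GW against siCon_IFNg it was called larger in Fosb and smaller in Junb, against 3.02%. In siSHP_IFNg_GW against siCon_IFNg_GW 0 of the 9 genes were called by limma, against 0.721% of all genes. At an unadjusted p under 0.05 there were 5 (Fos, Fosb, Fosl1, Jun and Atf3), against 12.2% of all genes.

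**Figure D4:**
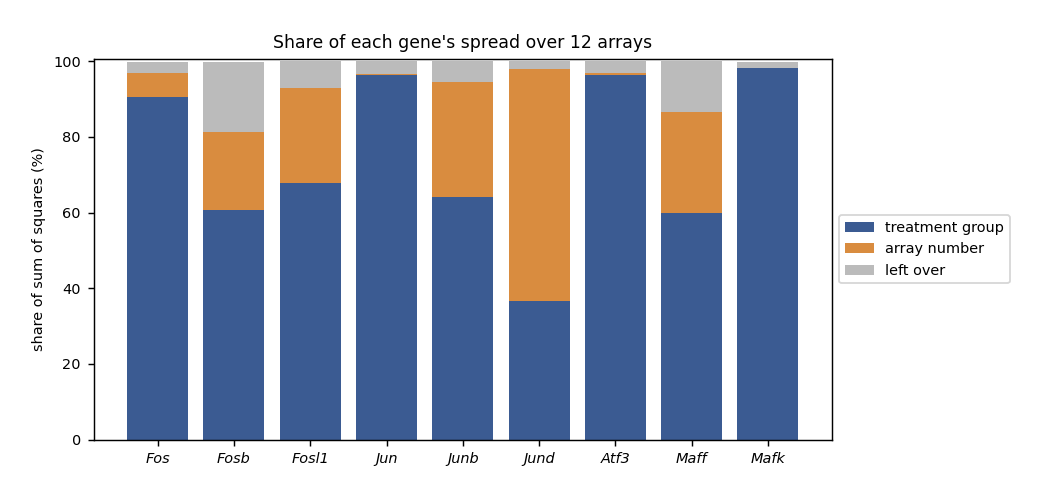
Share of each gene's sum of squares over the 12 arrays (y axis, percent, bars from 0) that lies between treatment groups, between array numbers and in neither. The group holds over 90% in Fos, Jun, Atf3 and Mafk, and 36.6% in Jund, where the array number holds 61.3%.

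As a description, the levels of the 9 genes correlated by 0.58 to 0.99 (median 0.83) over the 12 arrays in the 36 pairs of genes. After the mean of each array number was subtracted the range was 0.74 to 0.99 (median 0.92). The arrays share the groups and the numbers, so these values carry no test. Fosl1 and Junb (0.99), and Jun and Atf3 (0.99), were the closest pairs on either scale. With array-number means subtracted, the genes most like Fos among 12433 genes over background were Med26, Amotl2, Ppp1r12a, Rybp and Errfi1 (r of 0.99 each, 12 arrays). Those most like Atf3 were Chd1 and Map7d1 (0.99 each) and Gcnt2, Nrip1 and Klf6 (0.98 each). The second row of Jun, at a mean of 8.14 on the same scale, differed by 0.73 in siCon_IFNg against siCon, by 1.37 in siCon_IFNg_GW against siCon_IFNg and by -0.01 in siSHP_IFNg_GW against siCon_IFNg_GW. The row used above gave 0.95, 1.45 and 0.04.

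Of 22 listed dimer partners and related zipper factors, 20 had a row, and their median change in siCon_IFNg_GW against siCon_IFNg was 0.16. Bach2, a repressor that pairs with small Maf proteins, rose by 0.68 ± 0.093 (SE; limma adjusted p = 0.011). It was at 7.40, 7.31 and 7.22 in siCon_IFNg_GW and at 6.51, 6.73 and 6.66 in siCon_IFNg, with no overlap. It also rose in siCon_IFNg_GW against siCon (0.64) and in siSHP_IFNg_GW against siCon_IFNg (0.54). With the block 4 partners rose with GW, Bach2, the small Maf gene Mafg (0.71), Atf1 (0.38) and Ddit3, a factor of the endoplasmic reticulum stress response (1.44), against 3.64% of all genes called higher. In siCon_IFNg against siCon 0 partners were called, and with the block Maf fell by 0.61, against 0.341% of all genes called lower.

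Without the arrays numbered 1, a pair of partners also differed with the SHP siRNA. Batf3, whose protein pairs with Jun in immune cells, was at 7.36 and 7.46 in siSHP_IFNg_GW numbers 2 and 3, at 6.60 and 6.22 in siCon_IFNg_GW, at 7.67 and 7.58 in siCon_IFNg and at 6.30 and 6.19 in siCon. It was thus higher with interferon-γ than without (1.38, limma adjusted p = 5.9e-04), lower with GW added (-1.22, 7.6e-04) and higher again with SHP siRNA (1.00, 0.0069). On the arrays numbered 1 the values were 6.20, 6.54, 6.38 and 6.01 in the same order of groups, and do not follow that pattern. Over all 12 arrays 0 of the 3 differences of Batf3 were called (1.05, -0.76 and 0.55, limma adjusted p = 0.67, 0.48 and 0.99998). Crem, a CRE-binding factor of the same superfamily, was higher in siCon_IFNg than in siCon without number 1 (1.07, limma adjusted p = 0.0035). It was lower with GW added (-0.51, 0.0498) and higher in siSHP_IFNg_GW than in siCon_IFNg_GW (0.94, 0.014). On the arrays numbered 1 Crem was at 7.30 in siSHP_IFNg_GW and 7.83 in siCon_IFNg_GW, and at 7.08 in siCon_IFNg and 7.14 in siCon. All 3 differences thus have the other sign there. Over all arrays they were 0.69, -0.09 and 0.45 and were not called (limma adjusted p = 0.86, 0.96 and 0.99998). Of all genes 4.71%, 11.5% and 1.47% were called in either direction in these 3 comparisons without number 1. The neuron marker Tubb3 moved with them. Without number 1 it differed by 1.90 with interferon-γ, by -1.63 with GW added and by 1.07 with SHP siRNA (limma adjusted p = 1.9e-04, 2.6e-04 and 0.0075). The mean level of the 8 neuron markers was 6.44 to 6.78 in siSHP_IFNg_GW, 6.39 to 6.54 in siCon_IFNg_GW, 6.52 to 6.92 in siCon_IFNg and 6.41 to 6.68 in siCon. Tubb3 itself was over background on 4 arrays, numbers 2 and 3 of siSHP_IFNg_GW and of siCon_IFNg. On numbers 2 and 3 it was at 5.01 and 4.80 in siCon_IFNg_GW and at 4.48 and 4.80 in siCon, under background. Each of its 3 differences thus had 1 side under background. Of the 8 neuron markers 1 was called in the first of these comparisons and 2 in each of the other two. The second of those 2, Nefm, was over background on 0 arrays. The part of the neuron markers in the values of Batf3 and Crem was not tested. Batf3, Crem and Tubb3 were singled out after their values were seen.

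Of 27 kinases and factors upstream of AP-1, 22 had a row, and their median change with GW was 0.03. In each of the 3 comparisons above 0 of them were called, against 0.886% of all genes with GW, 0% with SHP siRNA and 0.121% with interferon-γ. With the block 3 of the 22 rose with GW, against 3.64% of all genes. Srf, serum response factor, rose by 1.04 ± 0.16 (SE; limma adjusted p = 0.0055) in siCon_IFNg_GW against siCon_IFNg. Its coactivator gene Mrtfa rose by 0.48 and Mef2d by 0.55 in that fit. Map3k8, a kinase that activates the MAP kinase cascade, was the 1 called in siCon_IFNg against siCon with the block, against 0.595% of all genes called higher, and rose by 0.94 (limma adjusted p = 0.0080). With GW, 3 of the 22 rose and 1 fell (Mapk14, -0.75) when the arrays numbered 1 were left out. Of all genes 6.47% were called higher and 4.98% lower there.

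Of 24 genes known as AP-1 targets, 23 had a row. Hbegf, a growth factor of the EGF family, rose by 2.48 ± 0.31 with GW (SE; limma adjusted p = 0.0077). It was at 10.32, 9.92 and 9.57 in siCon_IFNg_GW and at 8.19, 6.95 and 7.23 in siCon_IFNg, with no overlap. Hbegf also rose in siSHP_IFNg_GW against siCon_IFNg, by 1.97 (limma adjusted p = 0.039). Ccl2, a chemokine for monocytes, rose by 1.62 ± 0.21 in siCon_IFNg against siCon (limma adjusted p = 0.025). With the block 3 targets rose with GW, Hbegf, the prostaglandin synthase gene Ptgs2 (2.16) and the heme oxygenase gene Hmox1 (0.98), and 2 fell, one of them Spp1, which encodes osteopontin (-0.40), against 3.64% of all genes called higher and 2.91% called lower. The median change of the target list with GW was 0.05, against 1.49 for the 9 genes. When the arrays numbered 1 were left out, 7 targets rose with GW and 1 fell, against 6.47% and 4.98% of all genes. Tnf (1.70) and Il1b (1.52) were among the 7, but both were lower with GW on the arrays numbered 1. With SHP siRNA 1 target, Plau, fell in that fit (-0.72, limma adjusted p = 0.0097), against 0.116% of all genes called lower.

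Of the 12 microglia and myeloid markers, 11 had a lower mean in siCon_IFNg_GW than in siCon_IFNg. Cx3cr1, a chemokine receptor of microglia, differed the other way, at 8.43, 7.90 and 8.0002 in siCon_IFNg_GW and 7.72, 7.31 and 7.63 in siCon_IFNg, with no overlap. It was not called over all arrays (0.56, limma adjusted p = 0.53), but was without those numbered 1 (0.48, 0.043). The mean level over the 12 genes was 8.39 to 8.64 in siSHP_IFNg_GW and 8.30 to 8.48 in siCon_IFNg_GW, against 8.78 to 8.96 in siCon_IFNg and 8.72 to 9.35 in siCon. In siCon_IFNg_GW against siCon_IFNg their median change was -0.46, with 0 called, against 0.886% of all genes called in either direction. With the block 7 of the 12 fell, against 2.91% of all genes called lower. When the arrays numbered 1 were left out, 8 of the 12 fell and 1 rose. Of all genes 4.98% were called lower and 6.47% higher there. In siCon_IFNg_GW against siCon 1 of the 12 fell, Tyrobp (-0.92, limma adjusted p = 0.038), against 0.281% of all genes called lower. With the block 11 of the 12 fell in that comparison, against 3.9%. In these cultures fewer microglia and less RNA per microglial cell cannot be told apart, and the part of these cells in the rise of the AP-1 genes was not tested.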

How the data were processed

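RNA was extracted with Trizol and labelled with biotin for a whole-transcript array, per the labels' protocols. The values the authors deposited are log2 expression, 1 column per array. The log2 scale was read from their range (1.01 to 13.4). How the authors normalized them is not given in the sources used, and column medians over all rows ran from 5.51 to 5.67. The table held 36685 rows, of which the platform annotation pairs 18511 with 1 gene, 575 with several and 17599 with none. The row with the highest mean stood for each of the 291 genes with several rows, which left 18166 genes. Symbols were looked up in RefSeq GRCr8 for 18394 rows, and 0 changed.

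All 12 arrays entered 1 fit of 4 group means in limma 3.58.1 (lmFit and eBayes, R 4.3.3), with Benjamini-Hochberg adjustment over all genes and a threshold of 0.05. The fit was also run on simulated data in which the array number shifted all groups alike. Some treatment changes on these arrays differed in number 1, so that run does not show how the fit behaves for such genes. Tables and figures were made with pandas 2.3.3 and matplotlib 3.10.9 in Python 3.11.15. The precision is limited by the number of arrays, 3 per group. The labels share array numbers across groups, and deviations from the group means correlated by 0.63 to 0.77 among arrays numbered 1, by 0.48 to 0.58 among those numbered 2 and by 0.43 to 0.55 among those numbered 3. These correlations, over 6 pairs of arrays per number, are the sole source of the pairing. Deviations within a group sum to 0, so an offset of number 1 alone also makes numbers 2 and 3 correlate. The check therefore cannot show that numbers 2 and 3 were each paired across groups. A fit with the number as a block was an alternative, beside others listed in the closing section. The difference between the change in number 1 and that in numbers 2 and 3 was an interaction contrast with 1 array per group in number 1, so its spread came from numbers 2 and 3.

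The 10 genes and the lists of partners, upstream factors, targets and markers were chosen with earlier results of these data known. All 9 measured genes are named, and so are the 5 genes most correlated with Fos and with Atf3. Of each list some of the genes called are named, so a gene not named may still have been called. Protein sequences were not used here, and no promoter window was used for Fos, Jun and Atf3.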

Additional observations from a re-analysis of the deposited data

Results flagged for a closer look

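In 5 cases a limma interaction contrast, adjusted over all genes, called the treatment change of a gene different between the arrays numbered 1 and those numbered 2 and 3. Number 1 has 1 array per group and so no spread of its own, the lone arrays are assumed to vary like the others, and number 1 was chosen because it stood apart. The p-values are therefore a description. In siCon_IFNg against siCon, the log2 change in number 1 exceeded that in numbers 2 and 3 by 1.51 ± 0.24 in Fosl1 (SE; limma adjusted p = 0.019), by 1.39 ± 0.24 in Junb (0.024) and by 2.15 ± 0.39 in Maff (0.031). In siCon_IFNg_GW against siCon_IFNg, Fosb had a change larger by 2.49 ± 0.30 in number 1 (limma adjusted p = 0.0058), and Junb differed by -1.56 ± 0.24 (0.015). Fosl1 (-1.10, limma adjusted p = 0.058) and Atf3 (0.88, 0.078) did not pass. The reason for these differences was not tested.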

How the results depend on the processing

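With the array number as a replicate block, the count of the 9 genes called became 2 in siCon_IFNg against siCon (0 without the block), 8 in siCon_IFNg_GW against siCon_IFNg (4), 9 in siCon_IFNg_GW against siCon (4) and 7 in siSHP_IFNg_GW against siCon_IFNg (4), and the counts over all genes were 170, 1189, 1242 and 559, against 22, 161, 157 and 55. With number 1 against numbers 2 and 3 as the block, the 4 counts of the genes were 3, 8, 9 and 7, those over all genes 232, 1558, 1604 and 795, and 1 gene was called in siSHP_IFNg_GW against siCon_IFNg_GW. With the compared groups alone in the fit they were 1, 0, 3 and 2, and 7, 4, 32 and 6 over all genes. Centring arrays on the median left 79, 79 and 30 genes in siCon_IFNg_GW against siCon_IFNg, siCon_IFNg_GW against siCon and siSHP_IFNg_GW against siCon_IFNg, and of 15 in siCon_IFNg against siCon 12 were higher and 3 lower (15 and 7 without centring). Among genes over background alone, 88 were called in siSHP_IFNg_GW against siCon_IFNg, and 4 of the 9 genes, not 2, differed in number 1 in siCon_IFNg_GW against siCon_IFNg. Centring, quantile normalization, that filter, an intensity trend in eBayes and the mean of all rows of a gene left the count of the 9 genes at 4 in the 3 comparisons that had 4 and at 0 in the other two. With 1 array or 1 array number left out, the counts of the genes ran from 0 to 2 in siCon_IFNg against siCon, from 0 to 9 in siCon_IFNg_GW against siCon_IFNg, in siCon_IFNg_GW against siCon and in siSHP_IFNg_GW against siCon_IFNg, and stayed at 0 in siSHP_IFNg_GW against siCon_IFNg_GW. Over all genes the highest counts were 856, 2081, 1028, 1129 and 267 in that order, each without the arrays numbered 1, and the lowest 0. Signs turned in uncalled changes alone. In siCon_IFNg against siCon the ranges were -0.41 to 0.58 for Fos, -0.12 to 0.16 for Fosb, -0.11 to 1.15 for Fosl1, -0.16 to 1.34 for Junb and -0.42 to 0.21 for Jund. In siSHP_IFNg_GW against siCon_IFNg_GW they were -0.47 to 0.18 for Fos, -1.05 to 0.56 for Fosb, -0.48 to 0.33 for Fosl1, -0.23 to 0.33 for Jun, -0.39 to 0.42 for Junb, -0.37 to 0.23 for Jund, -0.40 to 0.084 for Atf3, -0.065 to 0.71 for Maff and -0.058 to 0.031 for Mafk, whose change was 0.0054 after centring. The cause of these shifts was not tested.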
